A study of Mus musculus with 11 samples.

Results

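The nuclear genes for complexes II to V of the mitochondrial respiratory chain were followed in bulk RNA sequencing of the apex of the C57BL/6 mouse heart. Members were the protein-coding genes named Sdha to Sdhd, Cycs or Cyc1, or with a name starting with Uqcr, Atp5 or Cox4 to Cox8, which gave 50 of the 55414 gene identifiers in the files. They comprised 4 genes of complex II, 9 of complex III, Cycs for cytochrome c, 18 of complex IV and 18 of complex V. The 4 libraries of the NR group came from unirradiated hearts. In the S-PRT group (4 libraries) and the F-PRT group (3 libraries, numbered 2 to 4) the apex had received a focal dose of 40 Gy of protons, at the standard dose rate or at the ultra-high FLASH dose rate, and was taken 2 weeks later. All groups were of the C57BL/6 strain with no transgene in the labels, which give neither age nor whether a library is a separate animal, so p-values cover only how much these libraries vary, and that variation may be technical.

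The respiratory chain passes electrons from succinate through complex II, and from reduced quinone through complex III and cytochrome c, to oxygen at complex IV. Complexes III and IV pump protons, and complex V, the ATP synthase, uses their return to make ATP. The heart depends on this chain more than almost any other tissue, and its complex IV carries muscle isoforms of several small subunits. All of complex II and most subunits of the others are encoded in the nucleus, and a few core subunits of complexes III, IV and V in mitochondrial DNA.

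Promoters are printed for 4 complex IV isoform genes, taken from the pairs of muscle forms and forms of other tissues whose ratios are compared later. Not every partner of these pairs is printed. The sequences run 5′ to 3′ on the gene's strand from 250 bases before to 50 bases after the start, from RefSeq on GRCm38.p6, and capitals mark matches to the NRF1 motif (GCGCA and GCGC with 1 base between them) or the ETS motif CCGGAAG on either strand. Cox6a1 encodes the widely expressed form of subunit 6a, Cox7a2 that of subunit 7a, and Cox7a1 and Cox8b encode muscle forms.
Cox6a1, chr5:115348909-115349208, - strand: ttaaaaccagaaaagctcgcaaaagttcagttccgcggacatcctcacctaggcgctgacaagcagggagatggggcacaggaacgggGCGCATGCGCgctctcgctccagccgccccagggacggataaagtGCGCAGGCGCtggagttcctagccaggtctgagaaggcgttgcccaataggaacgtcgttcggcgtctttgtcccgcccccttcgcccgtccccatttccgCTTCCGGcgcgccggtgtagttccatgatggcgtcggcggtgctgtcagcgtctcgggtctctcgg
Cox7a2, chr9:79759804-79760103, - strand: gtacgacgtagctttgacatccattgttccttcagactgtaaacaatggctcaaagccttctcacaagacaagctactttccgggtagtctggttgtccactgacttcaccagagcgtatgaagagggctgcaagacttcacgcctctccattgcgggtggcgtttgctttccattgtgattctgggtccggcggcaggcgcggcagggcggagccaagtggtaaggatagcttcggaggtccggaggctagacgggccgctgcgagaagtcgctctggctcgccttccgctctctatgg
Cox7a1, chr7:30183921-30184220, + strand: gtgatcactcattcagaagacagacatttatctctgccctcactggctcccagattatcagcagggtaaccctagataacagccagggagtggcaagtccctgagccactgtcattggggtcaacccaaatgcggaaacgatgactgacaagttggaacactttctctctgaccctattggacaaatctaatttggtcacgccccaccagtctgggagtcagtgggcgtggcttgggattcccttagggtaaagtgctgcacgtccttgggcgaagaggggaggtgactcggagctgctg
Cox8b, chr7:140900397-140900696, - strand: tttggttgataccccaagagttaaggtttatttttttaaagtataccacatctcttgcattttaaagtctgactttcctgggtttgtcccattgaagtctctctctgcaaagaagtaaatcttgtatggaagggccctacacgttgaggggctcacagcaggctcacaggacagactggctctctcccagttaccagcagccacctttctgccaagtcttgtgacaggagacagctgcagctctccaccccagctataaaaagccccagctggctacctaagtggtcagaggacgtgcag
The Cox6a1 window held 2 NRF1 matches, 1 ETS match and 32 CpG pairs, and no matches overlapped. The Cox7a2 window held 20 CpG pairs, while the muscle forms Cox7a1 and Cox8b had 7 and 2, with no match to either motif in these 3 windows.

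Of the 50 members, 36 were found in the promoter table, and 10 of them (27.8%) held an NRF1 match against 5.19% of 27025 genes in the table. NRF1 is a transcription factor known for driving nuclear genes of mitochondrial proteins. The ETS motif, bound by GABPA among others, was in 12 members (33.3%) against 9.93% of all genes. For the YY1 motif AANATGGCG the shares were 8.33% and 2.76%, and for the muscle factor motif of MEF2 (CTA and TAG with 4 bases between them) they were 2.78% and 4.23%. ETS matches were found in 8 of the 15 members with a promoter that rose after F-PRT (53.3%, calls described further on) and in 4 of the 21 that did not pass (19.0%). For NRF1 these shares were 26.7% and 28.6%, for YY1 6.67% and 9.52%, and for MEF2 0.0% and 4.76%. These are counts of letters in a fixed window and were not tested.

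Together the members were among the abundant transcripts of the apex. In NR their summed level was 38233 to 49379 TPM (a level per transcript length, with the same total in every library), of which complex V held 41.8% ± 0.35, complex IV 37.7% ± 0.48, complex III 16.6% ± 0.092 and complex II 3.42% ± 0.12 (SD, n = 4). At the level of single genes, 16 members exceeded 1000 TPM in the NR mean. The highest was Atp5b, the catalytic beta subunit of the ATP synthase, at 3235 ± 421 TPM, followed by the small complex IV subunits Cox7c at 2662 ± 257 TPM and Cox6c at 2293 ± 30.2 TPM. Cox4i1, the common form of subunit 4, stood at 2180 ± 322 TPM and overlapped with Cox6c and Cox7c. Within complex III the highest was Uqcrq, a small subunit found beside cytochrome b, at 1381 ± 147 TPM, and within complex II Sdhb, the iron-sulfur subunit, at 542 TPM in the mean.

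The rarest tested member was Cox6b2, a form of subunit 6b known from testis, with 1.04 to 1.69 CPM (counts scaled for library size with TMM factors) in NR. Cox8c and Cox7b2, also testis forms, and the second identifier named Atp5o were at 0 or a few counts and were not tested, which left 47 members of 14556 genes. The tissue label was checked against 12 cardiomyocyte markers, which were all tested and summed to 40797 to 57498 TPM in NR. Expected counts per library summed to 20758170 to 40136578. Counts of 15 tested members were not whole in at least 1 library, which means that RSEM divided reads between them and similar loci. Cycs, Cox6c, Cox7c, Atp5f1, Atp5g1, Atp5g2, Atp5h, Atp5l, Cox7a2l and Uqcrc2 are uncertain for that reason. The same holds for Cox5a, Cox5b, Uqcrb, Atp5j and the tested identifier of Atp5o.

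**Figure D1:**
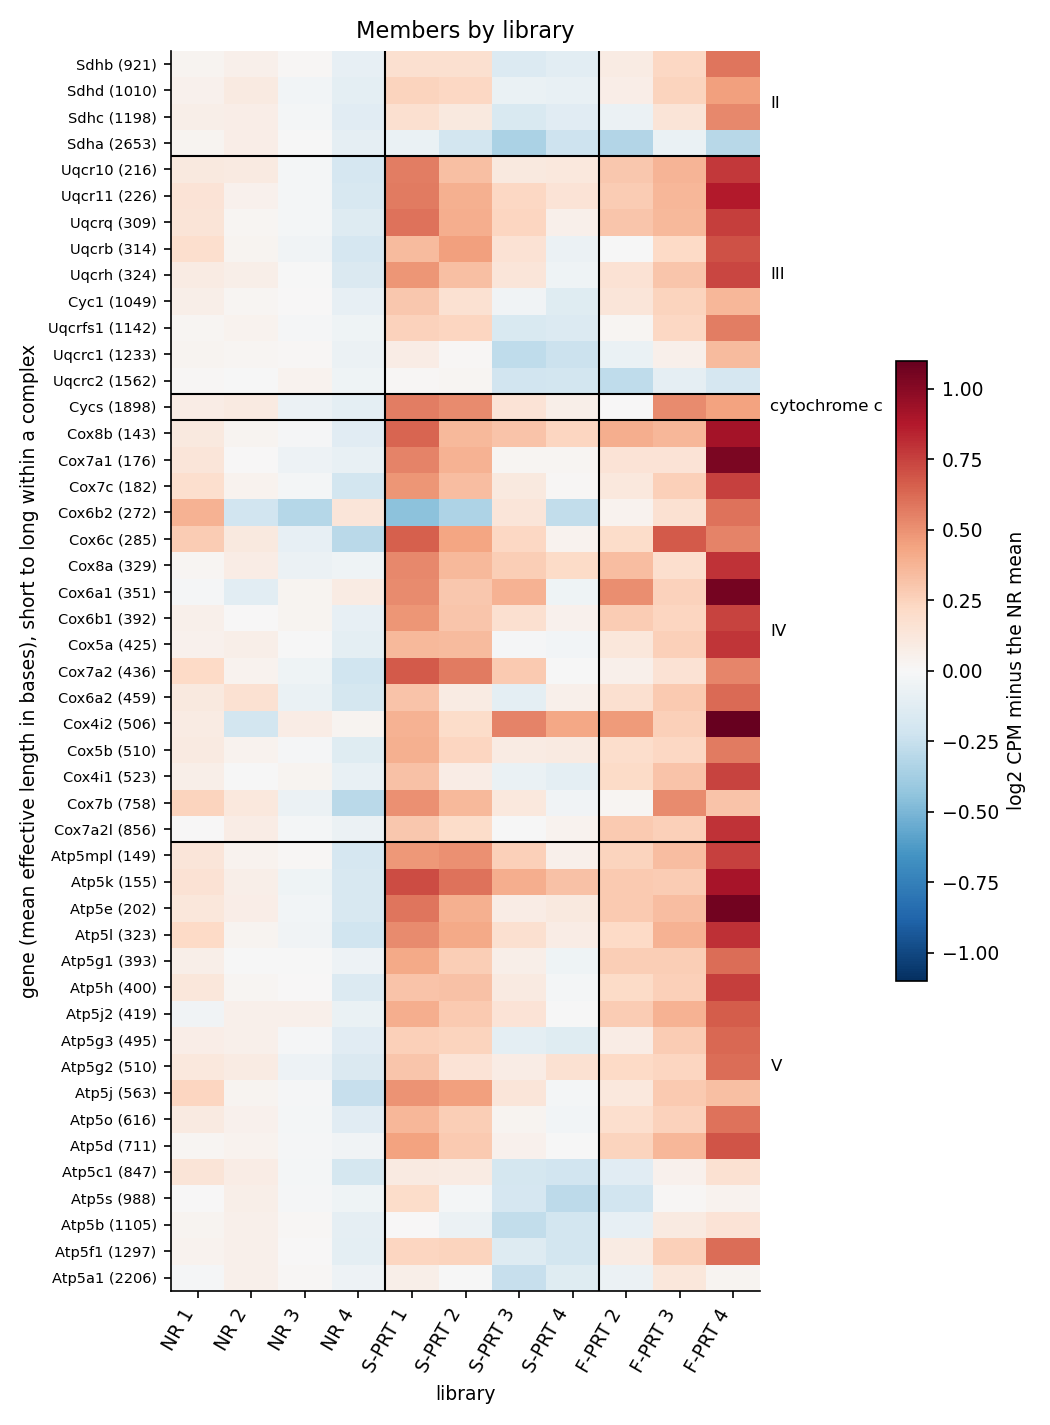
Log2 CPM minus the NR mean of the 47 tested members (rows, grouped by complex and ordered from short to long effective length) in the 11 libraries (columns). The 4 S-PRT libraries are uneven, with replicates 1 and 2 above 3 and 4 for 43 members, and F-PRT 4 is the highest of all 11 libraries for 38.

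F-PRT against NR asked which transcripts differed after FLASH irradiation. Of the 47 tested members 19 rose and 0 fell (edgeR quasi-likelihood test over all genes, adjusted p under 0.05), by 1.29-fold to 1.6-fold, where 10.8% of all genes were called higher and 19.5% were called in either direction. By their names the 19 were genes of complexes III, IV and V, 14 of them with transcripts under 500 bases long. Another 10 members of that length did not pass, nor did any member over 1000 bases. Over the 47 members the median log2 fold change was 0.37, with 44 positive, against 0.03 over all genes tested. All F-PRT libraries lay above all NR libraries for 28 members, where 17.5% of all genes showed this, and below them for 1, Uqcrc2, where 13.9% did. The 19 calls rested on F-PRT 4: without it 0 members passed, the median was 0.22 and 1391 genes were called in place of 2841. Without NR 1, 2, 3 or 4 there were 3, 5, 4 and 2 members called, and without S-PRT 3 there were 10.

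Among the 4 complex II genes 0 passed (edgeR, 3 with an unadjusted p under 0.05). They were 921 (Sdhb) to 2653 (Sdha) bases long, and in no complex did a member over 856 bases pass. Sdha, the flavoprotein that oxidizes succinate and the longest member, had 1247, 1290, 1224 and 1141 CPM in NR 1 to 4 and 976.3, 1165 and 992.4 CPM in F-PRT 2 to 4. The F-PRT values were low but overlapped with NR, and the log2 fold change was -0.23 ± 0.11 (SE, edgeR adjusted p = 0.135). Sdhb had 491.3 to 543.4 CPM in NR and 558.1, 612.7 and 788.2 CPM in F-PRT, all above NR, at a log2 fold change of 0.32 ± 0.13 that did not pass (adjusted p = 0.0971). The membrane anchors Sdhd and Sdhc, which bind the quinone, had 0.26 ± 0.12 (adjusted p = 0.126) and 0.22 ± 0.13 (adjusted p = 0.255). As a share of the members' TPM, complex II was 3.25% to 3.52% in NR, 2.91% to 3.32% in S-PRT and 2.87% to 3.13% in F-PRT.

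Of 9 complex III genes 3 rose after F-PRT, and all were small subunits. Uqcr11, an accessory subunit, had 291, 270, 258 and 232.6 CPM in NR 1 to 4 against 318, 338.4 and 479.1 CPM in F-PRT 2 to 4. All F-PRT libraries were above NR, with F-PRT 4 far above the other two, and the log2 fold change was 0.53 ± 0.15 (adjusted p = 0.028). Uqcr10 rose by 0.49 ± 0.14 (adjusted p = 0.0291) and Uqcrq by 0.48 ± 0.14 (adjusted p = 0.0333). Cyc1, the cytochrome c1 that passes electrons on to cytochrome c, had 0.25 ± 0.11 (adjusted p = 0.125), and Uqcrfs1, the Rieske iron-sulfur protein, 0.29 ± 0.14 (adjusted p = 0.161). The long core proteins Uqcrc1 and Uqcrc2 had 0.12 ± 0.12 (adjusted p = 0.509) and -0.19 ± 0.10 (adjusted p = 0.182).

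Uqcrc2 had 687.5, 679.2, 699.7 and 658.3 CPM in NR 1 to 4 and 560.5, 636.3 and 600.6 CPM in F-PRT 2 to 4, so that every F-PRT library was below every NR library. Cycs, the electron carrier between complexes III and IV that also triggers apoptosis when released, had 437.6 to 503.8 CPM in NR and 471.9, 677.1 and 640.6 CPM in F-PRT. The groups overlapped, and its log2 fold change of 0.34 ± 0.15 did not pass (adjusted p = 0.124).

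In complex IV 7 of 16 tested genes rose after F-PRT. Cox8b, the muscle form of subunit 8, had 267.2, 252.5, 246.2 and 227.6 CPM in NR 1 to 4 and 327.4, 320.2 and 468.8 CPM in F-PRT 2 to 4. Each F-PRT library was above each NR library, and the log2 fold change was 0.58 ± 0.14 (adjusted p = 0.0166). Cox8a, the common form, rose by 0.46 ± 0.13 (adjusted p = 0.0265). Cox6a1 had 42.3, 39.3, 43.5 and 45.4 CPM in NR against 60.6, 50.8 and 88.3 CPM in F-PRT and rose by 0.64 ± 0.17 (adjusted p = 0.022). Cox4i2, the form of subunit 4 known from lung and from oxygen sensing, was rare, at 4.07 to 4.99 CPM in NR and 6.46, 5.62 and 10.2 CPM in F-PRT, and rose by 0.68 ± 0.18 (adjusted p = 0.0248). Its common partner Cox4i1 rose by 0.44 ± 0.14 (adjusted p = 0.0465) and Cox6b1, a subunit at the interface of the complex IV dimer, by 0.44 ± 0.13 (adjusted p = 0.0385). Cox7a2l, placed in complex IV by its name alone, rose by 0.47 ± 0.13 (adjusted p = 0.0242).

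Other complex IV genes had similar values but did not pass. Cox7a1, the muscle form of subunit 7a, had 347.3 to 404.4 CPM in NR and 409.5, 407.9 and 755 CPM in F-PRT, and its log2 fold change was 0.51 ± 0.20 (adjusted p = 0.0921). F-PRT 2 and 3 were only just above the highest NR library. Cox6a2, the muscle form of subunit 6a, had 0.37 ± 0.14 (adjusted p = 0.0739), Cox6c 0.47 ± 0.17 (adjusted p = 0.0696), Cox7c 0.40 ± 0.16 (adjusted p = 0.0954) and Cox7a2 0.26 ± 0.17 (adjusted p = 0.283). Cox6b2 had 0.27 ± 0.25 (adjusted p = 0.453) at a level near 1 CPM, where this depth could not show a change of that size.

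In complex V 9 of 17 tested genes rose after F-PRT. They included the epsilon subunit of the central stalk, Atp5e, with 277.5, 267, 249.3 and 225.1 CPM in NR and 310.6, 320.6 and 529.5 CPM in F-PRT (log2 fold change 0.60 ± 0.18, adjusted p = 0.0369), and the delta subunit Atp5d (0.45 ± 0.13, adjusted p = 0.0297). All F-PRT libraries were above NR for both. Small membrane subunits that hold the dimer of the enzyme rose too, with Atp5k at 0.52 ± 0.16 (adjusted p = 0.0356), Atp5l at 0.48 ± 0.15 (adjusted p = 0.0449), Atp5j2 at 0.45 ± 0.12 (adjusted p = 0.022) and Atp5mpl at 0.46 ± 0.14 (adjusted p = 0.0384). The identical c subunits of the rotor ring come from 3 genes. Atp5g1 (0.39 ± 0.13, adjusted p = 0.0465) and Atp5g2 (0.37 ± 0.11, adjusted p = 0.0377) rose, and Atp5g3 had 0.35 ± 0.14 (adjusted p = 0.104).

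The genes of the catalytic head did not pass. Atp5b had 3845, 3896, 3784 and 3510 CPM in NR and 3538, 4024 and 4157 CPM in F-PRT. The groups overlapped, and the log2 fold change was 0.06 ± 0.12 (adjusted p = 0.763). Atp5a1, the alpha subunit, had 0.03 ± 0.11 (adjusted p = 0.874) and Atp5c1, the gamma subunit of the rotor, 0.03 ± 0.12 (adjusted p = 0.883). Atp5f1, which encodes the stalk subunit b, had 0.34 ± 0.15 (adjusted p = 0.113).

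**Figure D2:**
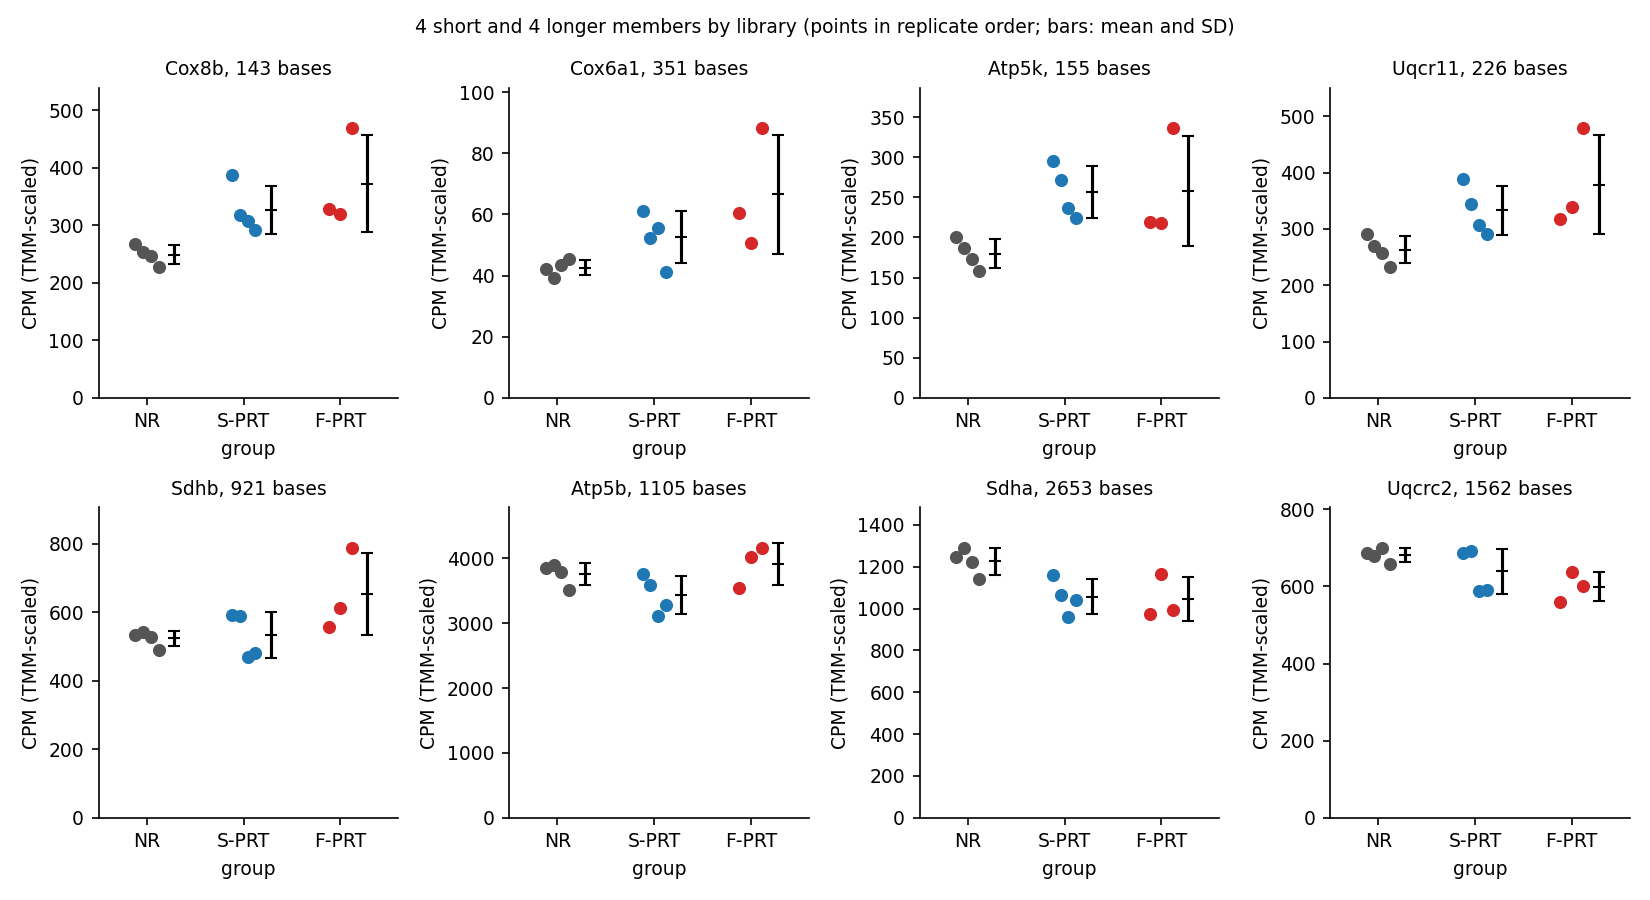
CPM in each library (points, replicates in order from left to right) of 4 short members (upper row) and 4 longer members (lower row), with mean and SD bars for NR (n = 4), S-PRT (n = 4) and F-PRT (n = 3). F-PRT 4 is highest for Cox8b, Cox6a1, Atp5k, Uqcr11, Sdhb and Atp5b but not for Sdha (992.4 CPM) or Uqcrc2 (600.6 CPM).

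The members' values went with transcript length. The median effective length (the number of positions a fragment can start from) was 495 bases over the 47 members and 2390 bases over 13163 other protein-coding genes tested. Across members the log2 fold change of F-PRT against NR correlated with log2 effective length at a Spearman rho of -0.75, and across the other protein-coding genes at -0.592. Genes of a library are not independent replicates, and these values share libraries and scaling. All 19 members that rose were at most 856 bases long. Under 500 bases 14 of 24 members rose (58.3%), and so did 193 of 334 other protein-coding genes (57.8%). From 500 to 1000 bases it was 5 of 12 (41.7%) against 514 of 1326 (38.8%), and from 1000 to 2000 bases 0 of 9 (edgeR, 4 with an unadjusted p under 0.05) against 517 of 3657 (14.1%). Among the abundant other genes (mean log2 CPM 5 or more), 111 of 147 under 500 bases (75.5%), 189 of 330 from 500 to 1000 bases (57.3%) and 173 of 799 from 1000 to 2000 bases (21.7%) rose. Up to 1000 bases the members' shares were near those of all equally long genes and below those of the abundant ones, and from 1000 to 2000 bases they were below both.

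Median log2 fold changes of F-PRT against NR were compared in the same classes. Under 500 bases it was 0.45 for the members and 0.50 for the other genes, and 0.51 for the abundant ones among them. From 500 to 1000 bases the medians were 0.35, 0.39 and 0.38 in that order. From 1000 to 2000 bases they were 0.25, 0.18 and 0.17, with the members above the other genes although none of them passed, and the 2 members over 2000 bases, Sdha and Atp5a1, had a median of -0.10 against -0.14 and -0.16. The members' median was 0.44 with library size scaling and 0.34 on the log2(TPM + 1) scale, where all genes had 0.07 and 0.02. A trend on effective length was then removed in each library. It was fitted over all tested genes, members among them, so any shift shared by genes of similar length goes with it. Other protein-coding genes under 500 bases went from a median of 0.50 to 0.05. This fit therefore cannot tell where a shared shift came from. With the trend removed, 0 members passed (3 with an unadjusted p under 0.05), the members' median fell to -0.02 and 3.39% of all genes were called. The largest values left were Cycs at 0.26 (adjusted p = 0.339) and Cox4i2 at 0.23 (adjusted p = 0.403), and the lowest were Atp5s, an assembly-related coupling factor, at -0.34 (adjusted p = 0.0816) and Uqcrc2 at -0.33 (adjusted p = 0.0664).

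**Figure D3:**
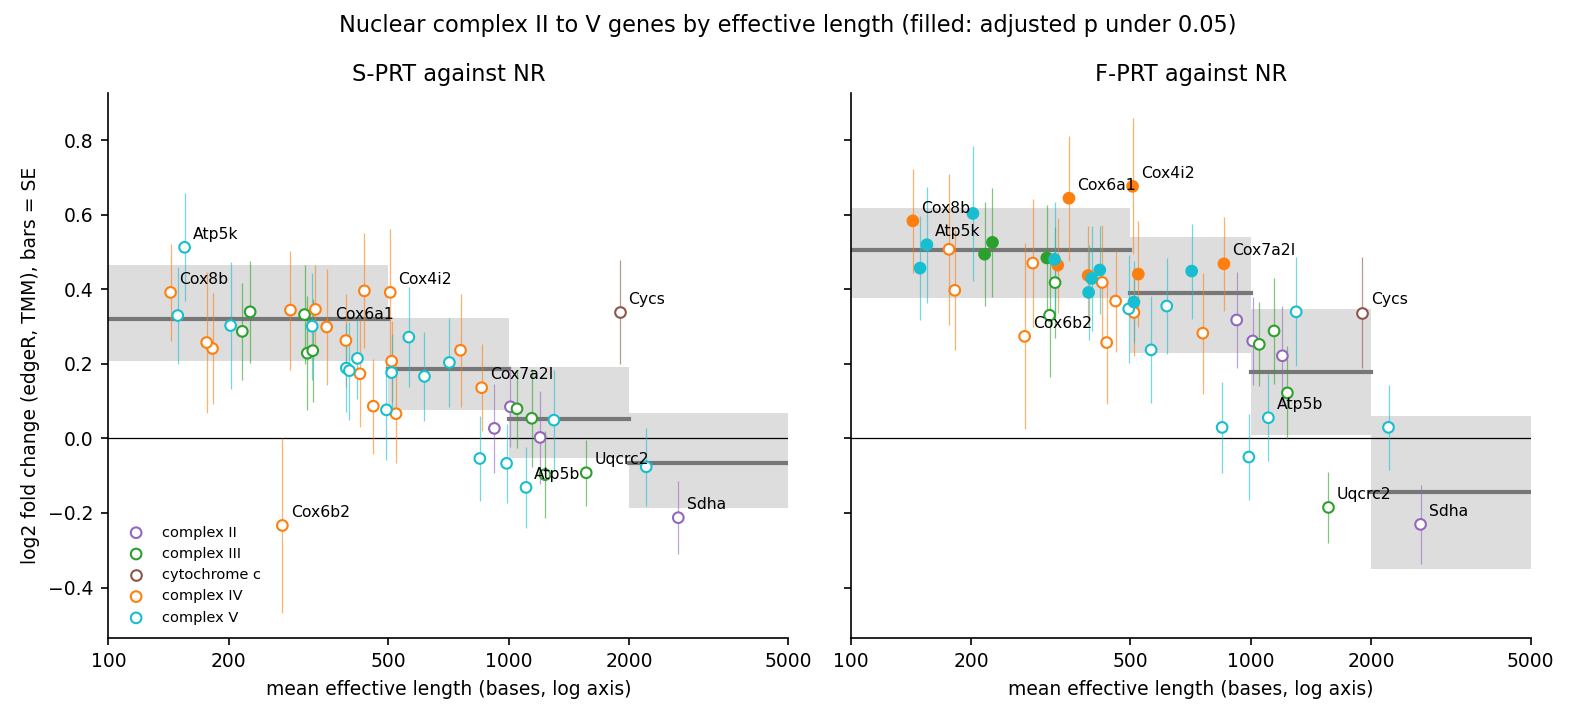
Log2 fold change (edgeR, bars are SE) of the 47 tested members against mean effective length on a log axis, for S-PRT and F-PRT against NR. Grey lines and bands are the median and the quartiles of other protein-coding genes in 4 length classes (the outer classes drawn to the edges of the axis). Members fall along the grey steps, and the 19 filled points that passed the test are all at 856 bases or less.

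By library the gradient with length went with the members' level only in part. Log2 CPM centred on the mean of the 11 libraries correlated with log2 effective length over all tested genes at 0.338 to 0.418 in NR, -0.257 to 0.267 in S-PRT and -0.556 to -0.162 in F-PRT. In F-PRT 4, with the lowest value, the median over members under 500 bases was 0.76 above the NR mean on the log2 scale, and that of the other genes of that length was 0.72. In F-PRT 2 these values were 0.23 and 0.37, and in F-PRT 3 they were 0.28 and 0.32. The correlation with length was -0.289 in F-PRT 2 and -0.162 in F-PRT 3, so the steeper gradient had the lower members' value. S-PRT 1, at -0.257, had 0.50 for members under 500 bases. Library composition moved as well: mitochondrially encoded transcripts took 30.6% to 43.8% of the counts of NR libraries, 37.1% to 43.5% of S-PRT and 24.2% to 42.3% of F-PRT libraries, with the lowest share in F-PRT 4. Of the remaining, nuclear counts the members held 4.22% to 4.36% (NR), 4.15% to 4.77% (S-PRT) and 4.46% to 5.76% (F-PRT). The part of length and of composition in the members' values beyond the comparisons given was not tested.

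**Figure D4:**
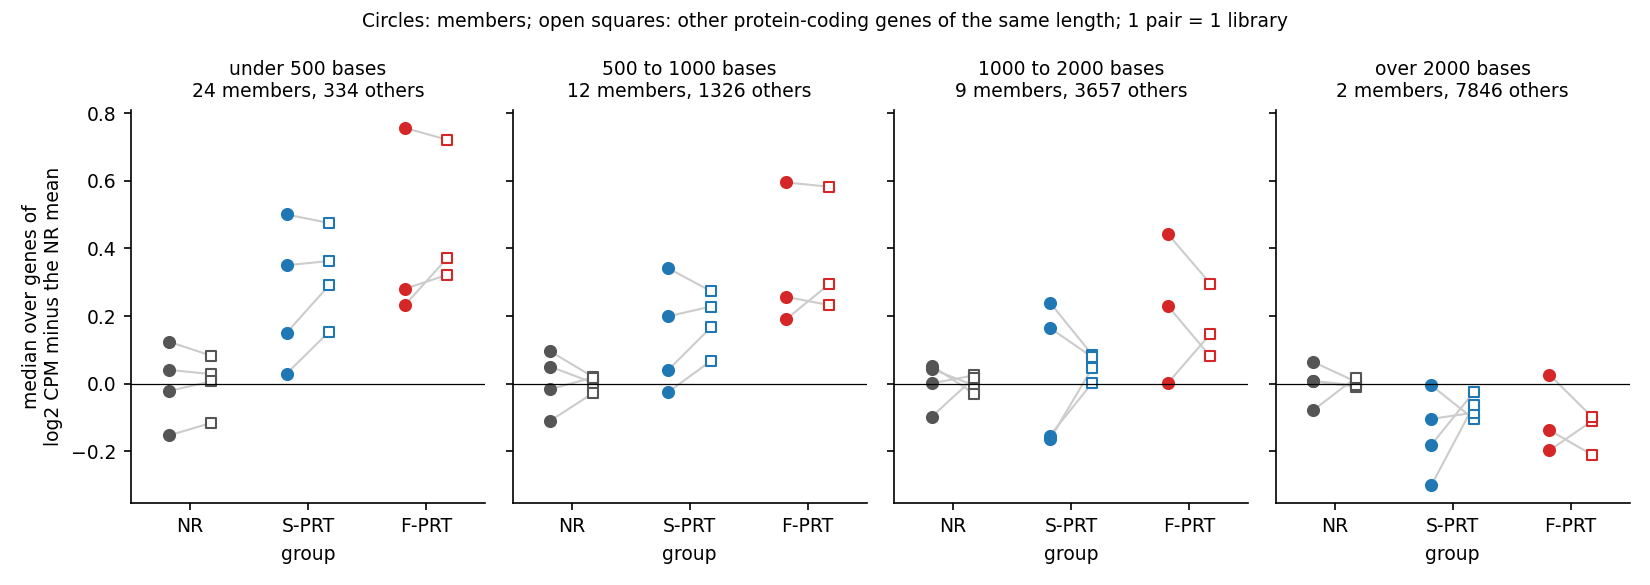
Median over genes of log2 CPM minus the NR mean in each library, for members (circles) and other protein-coding genes of the same effective length (open squares), in 4 length classes. Lines join values of the same library. Under 500 bases the 3 F-PRT libraries had 0.23, 0.28 and 0.76 for members and 0.37, 0.32 and 0.72 for the others.

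S-PRT against NR asked which transcripts differed after the same dose at the standard rate. Of the 47 members 0 passed (edgeR, 11 with an unadjusted p under 0.05, and 1 with DESeq2), where 1.29% of all genes were called. An unadjusted p under 0.05 in edgeR was found for 2666 of 14556 genes. Under 500 bases it was found for 8 of 24 members and for 185 of 334 other protein-coding genes. Without F-PRT 4, which enters the shared estimate of spread, 3 members passed. The median log2 fold change was 0.20, with 39 positive, against 0.01 over all genes. All S-PRT libraries were above all NR libraries for 5 members (Uqcr11, Cox8b, Cox8a, Cox4i2 and Atp5k), where 7.34% of all genes showed this. Under 500 bases this held for 4 of 24 members and for 144 of 334 other protein-coding genes. The replicate number was also used as a block that pairs NR and S-PRT libraries. No label gives this pairing, which was taken from correlations in these same data, so its calls are not independent support. With the block 15 members rose and 0 fell, where 6.57% of all genes were called higher. Of these 15, 10 also rose after F-PRT, but the share of all genes with both calls was not counted, so this overlap has no background to read it against. Under 500 bases the block called 11 of 24 members higher, 156 of 334 other protein-coding genes and 96 of the 147 abundant ones. From 500 to 1000 bases it called 3 of 12 members, 213 of 1326 other genes and 71 of the 330 abundant ones. Both comparisons use the same NR libraries, so the values of the 2 are not independent.

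The largest value after S-PRT was that of Atp5k, a small membrane subunit of the ATP synthase. It had 200.3, 187.1, 173.7 and 158.8 CPM in NR 1 to 4 and 295.1, 271.8, 236.3 and 224 CPM in S-PRT 1 to 4 (log2 fold change 0.51 ± 0.15, adjusted p = 0.101, with the replicate block 0.0018). All S-PRT values were above all NR values. Cox8b had 386.9, 317.4, 307.6 and 291.8 CPM in S-PRT, all above NR (0.39 ± 0.13, adjusted p = 0.142, with the block 0.0091). Cox7a2 had 313.2, 290.8, 239.6 and 195.2 CPM against 168.7 to 228.8 CPM in NR, with overlap (0.40 ± 0.15, adjusted p = 0.195, with the block 0.0129).

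Cycs was the only member over 1000 bases long with a block call after S-PRT. It had 695.5, 674.6, 524.5 and 493.6 CPM in S-PRT, and S-PRT 4 overlapped with NR (0.34 ± 0.14, adjusted p = 0.221, with the block 0.0288), and its value with the length trend removed was 0.32 (adjusted p = 0.312). Uqcr11 (0.34 ± 0.14, adjusted p = 0.213), Cox8a (0.35 ± 0.12, adjusted p = 0.153), Cox6c (0.34 ± 0.16, adjusted p = 0.274) and Cox4i2 (0.39 ± 0.17, adjusted p = 0.248) also passed with the block, at 0.0134, 0.0146, 0.0129 and 0.0448. Atp5mpl (0.33 ± 0.13, adjusted p = 0.202), Uqcrq (0.33 ± 0.13, adjusted p = 0.205) and Uqcr10 (0.29 ± 0.13, adjusted p = 0.265) did so at 0.0171, 0.0224 and 0.0386.

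At the other end, Sdha had 1162, 1064, 961.1 and 1043 CPM in S-PRT, low but overlapping with NR at 1162 against 1141 (-0.21 ± 0.10, adjusted p = 0.269, with the block 0.101). The lowest value was that of Cox6b2 (-0.23 ± 0.24, adjusted p = 0.641), at about 1 CPM. Atp5b had -0.13 ± 0.11 (adjusted p = 0.555).

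The gradient with length was present after S-PRT too, with a Spearman rho of -0.682 across the 47 members and -0.401 across the other protein-coding genes. Under 500 bases the median was 0.27 for the members and 0.32 for the other genes, and from 500 to 1000 bases 0.17 and 0.19. With the length trend removed the members' median was -0.06, with 0 passing (4 with an unadjusted p under 0.05). On the log2(TPM + 1) scale it was -0.06 where all genes had -0.13, and with library size scaling it was 0.05 where all genes had -0.14, so the sign of the members' median after S-PRT depended on the scaling, while it lay above that of all genes on these 3 scales and below it with the length trend removed.

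F-PRT against S-PRT asked whether the dose rate mattered at the same dose. Of the 47 members 0 passed, as of all genes (0.0% called), with 3 members and 2315 genes at an unadjusted p under 0.05 in edgeR. DESeq2 called 0 members and 167 genes. Without F-PRT 3 there were 0 members and 104 genes called by edgeR. The median was 0.19 with 42 positive, against 0.002 over all genes with 7330 of 14556 positive. Under 500 bases the members' median was 0.19, and that of other protein-coding genes 0.15, with 255 of 334 positive. From 500 to 1000 bases the medians were 0.19 and 0.18, and from 1000 to 2000 bases 0.19 and 0.11. With library size scaling the median over all members was 0.40 where all genes had 0.19. All F-PRT libraries were above all S-PRT libraries for 0 members, where 5.45% of all genes showed this. The smallest adjusted p was that of Cox7a2l (0.33 ± 0.13, adjusted p = 0.249), next to Cox4i1 (0.37 ± 0.14, adjusted p = 0.25), Sdhb (0.29 ± 0.13, adjusted p = 0.302), Cox6a2 (0.28 ± 0.14, adjusted p = 0.332) and Atp5g3 (0.27 ± 0.14, adjusted p = 0.375). The largest difference was that of the rare Cox6b2 (0.51 ± 0.25, adjusted p = 0.34), with 0.943 to 1.42 CPM in S-PRT and 1.33 to 1.96 CPM in F-PRT.

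Cox4i1 illustrates the spread behind these values. It had 1483, 1260, 1134 and 1107 CPM in S-PRT 1 to 4 and 1376, 1474 and 1997 CPM in F-PRT 2 to 4, so that S-PRT 1 exceeded F-PRT 2 and 3. Across the members the difference between the irradiated groups correlated only weakly with length (rho -0.124), against -0.494 across the other protein-coding genes. Cox7a2 was the lowest, at -0.14 ± 0.17 (adjusted p = 0.71), and -0.30 with the length trend removed (adjusted p = 0.35).

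Ratios of tissue-specific to common isoforms of complex IV subunits within a library are free of the library's scaling. The gradient with length was not removed from them, and some partners differ in effective length. Cox7a1 and Cox7a2 had 176 and 436 bases, and Cox8b and Cox8a 143 and 329. These ratios were compared by exact two-sided permutation tests over libraries, with adjustment over 12 tests. The smallest p that 4 against 4 or 4 against 3 libraries allow is 0.0286. The log2 ratio of Cox7a1 to Cox7a2 (on TPM + 1) had means of 2.26 ± 0.10 (NR), 2.06 ± 0.095 (S-PRT) and 2.39 ± 0.23 (F-PRT, SD). By library it was 2.17, 2.20, 2.25 and 2.40 in NR, 2.05, 2.09, 1.93 and 2.15 in S-PRT, and 2.32, 2.21 and 2.66 in F-PRT. The S-PRT values were below all NR and all F-PRT values. The difference was -0.20 from NR (exact permutation p = 0.0286, adjusted p = 0.171) and 0.34 between F-PRT and S-PRT (exact permutation p = 0.0286, adjusted p = 0.171), and neither passed after adjustment. With expected counts in place of TPM the differences were -0.14 and 0.34 (exact permutation test, adjusted p = 0.343 for both).

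The other isoform ratios overlapped between groups. Cox6a2 over Cox6a1 averaged 3.42 ± 0.25 (NR), 3.23 ± 0.25 (S-PRT) and 3.20 ± 0.23 (F-PRT). Cox8b over Cox8a was 3.53 ± 0.082, 3.51 ± 0.067 and 3.60 ± 0.073. Cox4i2 was far below Cox4i1, at -7.78 ± 0.11, -7.47 ± 0.26 and -7.63 ± 0.17, with a difference of 0.31 after S-PRT (exact permutation p = 0.0571, adjusted p = 0.229). No other exact p was under 0.229.

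**Figure D5:**
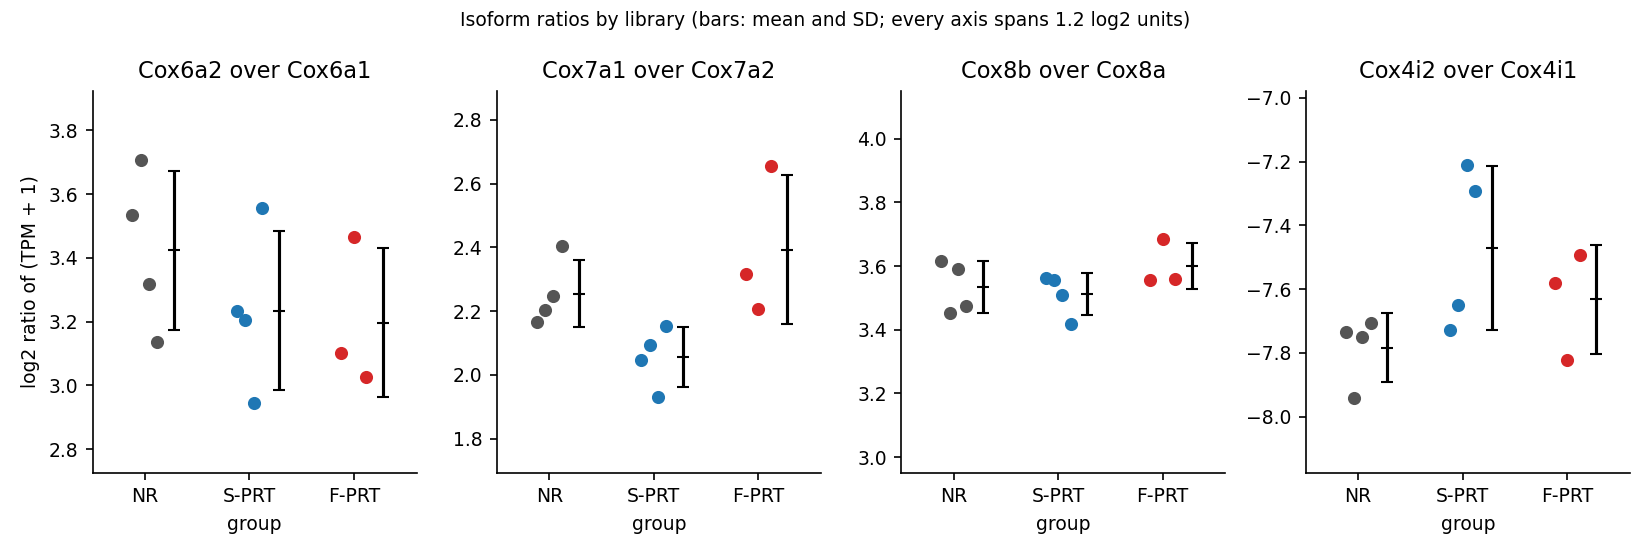
Log2 ratio of TPM + 1 of 4 pairs of complex IV isoform genes in each library (points), with mean and SD bars (n = 4, 4 and 3). For Cox7a1 over Cox7a2 the S-PRT libraries (1.93 to 2.15) lie below all others, which start at 2.17.

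Genes that work with the members were compared as lists. Of 39 assembly factors of complexes II to V, 13 rose and 1 fell after F-PRT and 1 rose after S-PRT, with medians of 0.22 and 0.11. Of all genes, 10.8% were called higher and 8.67% lower after F-PRT. Coa3 (0.50 ± 0.09, adjusted p = 0.00875), Pet100 (0.75 ± 0.15, adjusted p = 0.0096), both for complex IV, Uqcc3 for complex III (0.59 ± 0.13, adjusted p = 0.0128) and Sdhaf1 for complex II (0.56 ± 0.11, adjusted p = 0.00887) had the smallest p after F-PRT. Sdhaf1 was long, at 2269 bases, and kept 0.54 with the length trend removed (adjusted p = 0.022), while Coa3, Pet100 and Uqcc3 did not pass there (adjusted p = 0.232, 0.124 and 0.183). Pet100 was the assembly gene that rose after S-PRT (0.80 ± 0.14, adjusted p = 0.0228, and 0.52 with the length trend removed, adjusted p = 0.057). The gene that fell after F-PRT was Cox15, which makes heme a for complex IV (-0.39 ± 0.12, adjusted p = 0.0355), at 4499 bases, and with the length trend removed it had -0.16 (adjusted p = 0.351). There the assembly gene that fell was Coa7 (-0.50, adjusted p = 0.0219), named after its value was seen, which had -0.17 ± 0.10 before (adjusted p = 0.244).

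Of 37 nuclear complex I subunits, the other large nuclear group of the chain, 24 rose and 0 fell after F-PRT with a median of 0.43, and 0 passed after S-PRT (edgeR, 11 with an unadjusted p under 0.05). Of 87 cytosolic ribosomal protein genes, which are also short and abundant, 78 rose after F-PRT (median 0.52) and 9 after S-PRT (median 0.33). For comparison, 10.8% of all genes and 57.8% of protein-coding genes under 500 bases outside the members rose after F-PRT. After S-PRT these shares were 0.872% and 10.2%. With the length trend removed, 0 of the 37 and 1 of the 87 passed after F-PRT, and 0 and 1 after S-PRT. The 6 mitochondrially encoded subunits of complexes III to V had 0 calls in any comparison (edgeR, 1 with an unadjusted p under 0.05 in F-PRT against S-PRT and 0 in the others). Their medians were 0.31 after S-PRT, -0.05 after F-PRT and -0.35 between the irradiated groups. mt-Co1, the catalytic core of complex IV, had -0.19 ± 0.35 after F-PRT (adjusted p = 0.723). Transport of ATP and phosphate had 0 of 7 genes called (edgeR, 0 with an unadjusted p under 0.05 in any comparison), with medians of 0.02 and 0.12 after S-PRT and F-PRT. Slc25a4, the ADP and ATP carrier of heart and muscle, had 0.32 ± 0.15 after F-PRT (adjusted p = 0.139).

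Among 16 regulators of mitochondrial biogenesis and RNA, 5 fell and 1 rose after F-PRT, and 0 fell and 1 rose after S-PRT. Ppara, the receptor that drives fat oxidation genes, fell by 1.51 ± 0.34 on the log2 scale (adjusted p = 0.0135) and had -1.44 with the length trend removed (adjusted p = 0.0387). Gabpa, the ETS factor of the motif above, fell by 0.47 ± 0.10 (adjusted p = 0.0107), Esrrg by 0.49 ± 0.13 (adjusted p = 0.0214), Ppargc1a, a coactivator of mitochondrial biogenesis, by 0.55 ± 0.14 (adjusted p = 0.0215), and Lrpprc, which stabilizes mitochondrial mRNAs, by 0.29 ± 0.09 (adjusted p = 0.0361). These 4 were 4156 to 5771 bases long and did not pass with the length trend removed (adjusted p = 0.187, 0.24, 0.296 and 0.612). Slirp, the short partner of Lrpprc, rose after both treatments (0.61 ± 0.11, adjusted p = 0.00838 after F-PRT, and 0.73 ± 0.10, adjusted p = 0.00864 after S-PRT), and both calls were lost with the length trend removed (0.17, adjusted p = 0.385, and 0.40, adjusted p = 0.0954).

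Markers of cell types were read beside the members, since fewer cells of a type and less RNA per cell cannot be told apart in bulk samples. Of 12 cardiomyocyte markers 1 rose (Myl3) and 1 fell (Ryr2, a very long transcript) after F-PRT and 0 passed after S-PRT (edgeR, 0 with an unadjusted p under 0.05), and their summed level was 41102 to 47361 TPM in S-PRT and 45781 to 81043 TPM in F-PRT. Of 10 endothelial markers 2 fell after S-PRT, and 3 fell and 1 rose after F-PRT, with summed levels of 843.6 to 1423 (NR), 604.7 to 815.9 (S-PRT) and 622.6 to 1558 TPM (F-PRT). Of 9 fibroblast markers 2 fell after F-PRT, and their sum was 350.7 to 885.9 TPM in NR, 360.9 to 471.1 TPM in S-PRT and 169.1 to 604.5 TPM in F-PRT. Of 9 macrophage markers 2 rose and 1 fell after F-PRT, with a median of 0.46. After S-PRT 1 fell (Cd163) and 0 rose, while 8 of the 9 had positive values, with a median of 0.88 over the list, and 7 had an unadjusted p under 0.05, Cd163 among them. Their sums were 68.5 to 145.1, 96.3 to 241.8 and 83.3 to 229.8 TPM in NR, S-PRT and F-PRT. Of 8 pericyte and smooth muscle markers 1 rose (Des) after F-PRT and 0 passed after S-PRT (edgeR, 3 with an unadjusted p under 0.05), and of 5 red blood cell genes 0 passed in either (edgeR, 0 with an unadjusted p under 0.05). The fat cell markers were listed at 0 in some libraries and not tested, except Cidea, which rose after F-PRT (0.56, adjusted p = 0.00823). Their part in the members' values was not tested.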

How the data were processed

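RNA of 11 heart apex libraries (4 NR, 4 S-PRT, 3 F-PRT) was sequenced with a poly(A) selected, directional kit per the labels' protocols. The deposited values were expected counts and TPM per gene from RSEM, per the file headers, and effective lengths, in bases and averaged over isoforms, were deposited beside them. FastQC, cutadapt, STAR, RSEM and edgeR were named with no version in the submitters' processing notes, with both GRCm39 and mm10 as builds. No source used here says if strand entered the counting, so antisense and overlapping genes are uncertain. RSEM shares ambiguous reads by a model, so counts of genes with near copies are uncertain (whole means within 1e-09 of a whole number). TPM depend on the other transcripts of a library, among them the mitochondrial ones.

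Expected counts were rounded, filtered (filterByExpr, minimum count 10, minimum total 15, 14556 genes kept), scaled with TMM and fitted for all 11 libraries together in edgeR 4.0.16 (R 4.3.3, 8 residual degrees of freedom), with adjusted p under 0.05 over all genes. The SE of a fold change is its size over the square root of F. CPM are TMM-scaled, and log2 CPM used a prior count of 2. Symbols came from a gene name table (52081 of 55414 identifiers matched) and biotypes from GENCODE M21. The fits were also run on simulated counts that held no gradient with length and no shift in library composition. That run therefore cannot show how the fits behave under either. Alternatives were DESeq2 1.42.0 (size factors and test), library size, limma 3.58.1 on log2(TPM + 1), no count filter, a length trend (lowess, span 0.3) removed per library, a replicate block and leaving out each library.

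Deviations of same-numbered libraries from their group means correlated over 11107 genes at 0.265, 0.282, 0.363 and 0.184 between NR and S-PRT, so these numbers were taken as pairs. The pairing rests on these correlations and the numbers in the titles, and no label names an animal or batch.

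Members, lists and named genes were chosen with earlier results of these data known. Named are the called members (at most 10 per comparison by p), in each complex those with the smallest p and the highest TPM, the isoform pairs, the c subunit genes, Cycs and the extremes. Atp5a1, Atp5c1, Atp5e, Atp5h, Atp5l, Atp5s, Cox6b1, Cyc1 and Uqcrc2 were added after their values were seen. Cox5a, Cox5b, Uqcrb, Atp5j and Atp5o are named only for counts that were not whole.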

Additional observations from a re-analysis of the deposited data

Results flagged for a closer look

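In NR the complex III core protein Uqcrc1 had 993.1 CPM in NR 4 and 1049 to 1059 CPM in the other 3 libraries, and the gap took 0.846 of the range of the group. This was the only such case among the 76 sets of values examined, where chance alone gives about 1 in 20. NR 4 was the lowest NR library for 43 of the 47 tested members.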

How the results depend on the processing

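Removing the trend on length ended all 19 member calls for F-PRT against NR (0 members, 493 of 2841 genes, median -0.02) and turned 6 of the 19 below 0, with Atp5g1, Atp5g2 and Atp5mpl at -0.05, Atp5h and Cox6b1 at -0.02 and Cox8a at -0.0036. The trend was fitted over all tested genes, members among them, so it takes out any shift that genes of similar length share and cannot tell where that shift came from. Library size scaling, limma on log2(TPM + 1) and the replicate block each left 0 members as well, with 134, 71 and 29 genes. DESeq2's size factors left 13 members. The block for F-PRT joined 3 pairs of numbers that did not pair by their correlations (-0.446 to 0.233 with NR, -0.389 to -0.156 with S-PRT). Leaving out single libraries gave 0 to 21 members and 1391 to 3801 genes, and medians of 0.22 to 0.47.

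For S-PRT against NR the genes called were 14 with library size, 697 with DESeq2, 2 with limma on log2(TPM + 1), 605 with no count filter, 44 with the length trend removed and 1426 with the replicate block. Members called were 1 with DESeq2, 1 with no filter and 15 with the block. The median was -0.06 with limma on log2(TPM + 1) and with the length trend removed. Leaving out single libraries gave 26 to 447 genes, 0 to 3 members and medians of 0.15 to 0.26.

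For F-PRT against S-PRT 3, 167, 9 and 71 genes were called with DESeq2's size factors, DESeq2, limma and no filter, and 0 to 104 with single libraries left out. The median was 0.40 with library size and 0.38 with limma. Cox8b over Cox8a in S-PRT against NR was 0.04 with expected counts and -0.05 to 0.01 with single libraries left out, and Cox6a2 over Cox6a1 in F-PRT against S-PRT was -0.17 to 0.07. Among the 31 named members, values of S-PRT against NR changed sign for 19 with the length trend removed, 16 with limma and 9 with library size, with 0 of the 31 called before. The other isoform ratios kept their direction in every alternative run. The cause of these shifts was not tested. Cox6b2, at 0.943 to 1.96 CPM, had the fewest counts of the tested members.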

Other observations

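Of genes that belong to complexes IV and V or regulate them but carry other names, Atpif1, the inhibitor of the ATP synthase, rose after S-PRT (log2 fold change 0.56 ± 0.12, edgeR adjusted p = 0.0373) and after F-PRT (0.52 ± 0.12, adjusted p = 0.0164), and neither call held with the length trend removed (0.27, adjusted p = 0.421, and 0.09, adjusted p = 0.762). Usmg5, a small membrane subunit of the ATP synthase, had 0.48 ± 0.18 (adjusted p = 0.181) and 0.51 ± 0.19 (adjusted p = 0.0759). Ndufa4, a subunit now assigned to complex IV, had 0.25 ± 0.15 (adjusted p = 0.404) and 0.32 ± 0.16 (adjusted p = 0.167). These 3 genes were looked up after the members' values had been seen.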
